A study of Mus musculus with 20 samples.

Results

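A set of 10 genes that move, sense or store iron was followed in mouse liver: the hepcidins Hamp and Hamp2, transferrin (Trf), the transferrin receptors Tfrc and Tfr2, Hfe, the iron transporter Slc11a2, the ferritin subunits Fth1 and Ftl1, and ceruloplasmin (Cp). They were given as a list by symbol, without a cut-off on measured values, and are 10 of the 53599 rows that both count tables share. Earlier results of these data were known when the genes were chosen. All 10 passed the filter on low counts in each comparison. The libraries came from bulk liver of male and female mice that were PPARa knockout (KO) or expressed a human PPARa transgene (hPPARa). The receptor encoded by Ppara is a nuclear receptor that switches on fatty acid oxidation. From weaning, all mice drank water with 0.5% sucrose for 6 to 7 weeks and ate a diet in which fat supplied 33.5%, carbohydrate 51.8% and protein 14.7% of the energy. The exposed groups also had perfluorooctanoic acid (PFOA), a persistent fluorinated surfactant, in that water at 8 µM (the unit is printed as "µm" in the series' text and was read as micromolar); the others are called vehicle.

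The 20 libraries fell into 8 groups. Among hPPARa mice, 3 females and 2 males had vehicle, and 2 females and 3 males had PFOA. Among KO mice, 1 female and 3 males had vehicle, and 3 of each sex had PFOA. The promoter of the transgene, the state of the mouse gene in the hPPARa mice and the age at weaning are not stated in the sources used here, nor is it said that libraries of a group came from separate mice. P-values therefore measure the spread between these libraries, which may be technical. Library totals ran from 14973673 to 17953860 counts. Levels are given as CPM, counts scaled to the library total after TMM. Ppara itself had 8.42 to 25.1 CPM in the KO libraries and 17.0 to 39.6 CPM in the hPPARa libraries. Since the deleted part of the gene is not stated, these values are no check of the genotype labels. All 12 hepatocyte markers were detected in every group. In 3 of the 10 KO libraries, cross-sex transcripts were found. Y-linked Ddx3y stood at 4.07 CPM in KO female PFOA replicate 2 and at 1.86 CPM in KO female vehicle replicate 1, and Xist, of the inactive X chromosome, at 30.8 CPM in replicate 2 of the KO males on PFOA. Results in KO are therefore also given without these 3 cross-sex libraries where that changes them. They include the only KO female on vehicle, so without them the PFOA difference in KO comes from males alone. Loss of a call there cannot be told apart from the loss of that group.

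Hepatocytes secrete hepcidin, a peptide hormone that binds the iron exporter ferroportin (Slc40a1) and causes its breakdown, so that iron stays inside gut cells, macrophages and hepatocytes. Hepatocytes sense circulating iron through Hfe and Tfr2 and through bone morphogenetic protein (BMP) signals passed on by SMAD proteins, and inflammation adds a signal through interleukin 6 and STAT3. Inside cells, iron regulatory proteins bind iron-responsive elements in the messenger RNAs of Tfrc, Slc11a2 and the ferritins, so that iron uptake and storage are set after transcription as well as by it.

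The mouse has 2 hepcidin genes side by side, and their promoters are printed because Hamp2 had the largest called differences of the list. These are 88 bases on the minus strand of each promoter, read 5′ to 3′ from the RefSeq table of build GRCm38.p6, at chr7:30944078-30944165 for Hamp and chr7:30924227-30924314 for Hamp2. They reach from −136 to −49 and from −133 to −46, counted from each gene's start. The counts were made on GRCm39, so these coordinates belong to another build than the counts. Capitals mark the core of a BMP response element, GGCGCC, at its place in Hamp and the bases aligned with it in Hamp2, and the letters TTCNNNGAA that STAT factors recognise.
Hamp: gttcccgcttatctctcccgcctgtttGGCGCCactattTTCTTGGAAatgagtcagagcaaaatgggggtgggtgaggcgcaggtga
Hamp2: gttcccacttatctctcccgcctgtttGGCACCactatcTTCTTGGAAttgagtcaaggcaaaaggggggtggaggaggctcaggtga
The stretches were identical at 78 of 88 bases. Counted from 1 at the 5′ end, with the Hamp base first, the difference inside the BMP core was G31A; the STAT letters were the same in both. Searched on both strands, GGCGCC stood in 11.9% and TTCNNNGAA in 8.3% of the 32851 promoter windows of the table, which run from 250 bases before to 50 after a start. A window was in the table for 8 of the 10 genes, and matches are letters only. Outside the hepcidins, GGCGCC stood in a Tfrc window at −89, and the antioxidant response element core TGACNNNGC (12.4% of windows) stood at −67 in Hfe. The nuclear receptor letters AGGTCA (16.3% of windows) stood in none of these windows. The letters of an iron-responsive element loop, C and after 5 more bases CAGTG, were searched on the transcribed strand after the start. They stood in a Tfr2 window at 32 (1.55% of windows). Only the 50 bases after a start were covered, so elements further along a messenger RNA could not be found. The lack of a match in the other genes is therefore no result.

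In livers of hPPARa mice, Hamp2 and Trf fell with PFOA and none of the 10 genes rose. In KO livers Trf fell, and Hfe, Fth1 and Cp rose. With edgeR's quasi-likelihood test, p adjusted by Benjamini-Hochberg over all genes and a threshold of 0.05, this made 2 of 10 called in hPPARa, where 22.6% of all tested genes were called (12.8% higher and 9.76% lower). It made 4 of 10 in KO, where 13.8% were called (7.41% higher and 6.36% lower). The hPPARa share lies near that background. The median log2 fold change over the 10 genes was −0.034 in hPPARa, beside −0.013 over all genes, and 0.19 in KO, beside −0.016. In bulk liver, fewer cells of a type and less RNA per cell cannot be told apart.

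**Figure D1:**
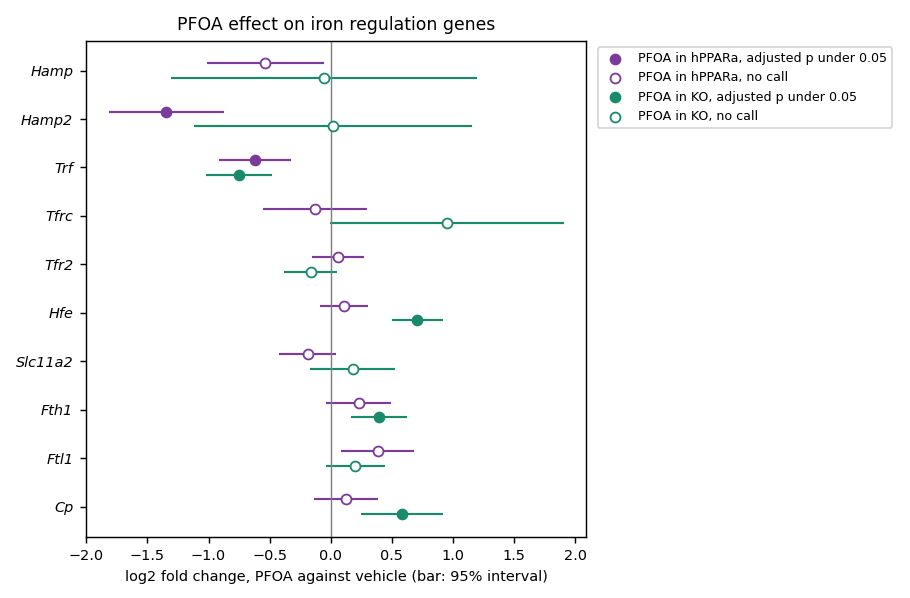
Log2 fold change of PFOA against vehicle for the 10 iron genes in hPPARa (purple) and KO (green) livers, from the model with sex as a term. Bars are 95% intervals and filled points have an adjusted p under 0.05. Trf sits left of 0 in both genotypes, Hamp2 is filled in hPPARa alone, and Hfe, Fth1 and Cp are filled on the right in KO.

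Hamp encodes the hepcidin that regulates iron. In hPPARa livers it had 978, 1095 and 705 CPM in the females and 558 and 682 CPM in the males on vehicle, and 557 and 714 CPM in the females and 329, 663 and 306 CPM in the males on PFOA. Exposed and vehicle livers overlapped: 3 of the 5 exposed livers lay below every vehicle liver. The difference did not pass the test (log2 fold change −0.53 ± 0.22 SE, adjusted p = 0.103). It passed when hPPARa male PFOA replicate 2, the highest of its group, was left out (−0.74, adjusted p = 0.00605), and when the low-count filter was dropped (−0.52, adjusted p = 0.00229).

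KO livers gave Hamp values of 765 CPM in the vehicle female, 398, 128 and 672 CPM in the vehicle males, 861, 769 and 576 CPM in the exposed females and 124, 466 and 562 CPM in the exposed males. Each male group held a single low liver, of 128 CPM on vehicle and 124 CPM on PFOA, and the other KO libraries lay at 398 CPM or more. With this spread, the difference of −0.055 ± 0.54 (adjusted p = 0.960) has a 95% interval of −1.31 to 1.19, which covers both a fall and a rise of over 2-fold.

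Hamp2 encodes the second mouse hepcidin, whose action on iron is less clear than that of Hamp. It was the gene of the list with the largest change in hPPARa livers. In the females it had 489.9, 521 and 554 CPM on vehicle and 278 and 315 CPM on PFOA. In the males it had 170.2 and 198 CPM on vehicle and 42.7, 39.4 and 67.7 CPM on PFOA. Within each sex every exposed liver lay below every vehicle liver, and the 4 groups followed each other without overlap, from vehicle females down to exposed males. Hamp2 fell 2.54-fold with PFOA by edgeR's test (log2 fold change −1.35 ± 0.21 SE, adjusted p = 0.00124), and the call held in every alternative run.

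The fall in hPPARa was from 522 ± 32.1 (SD, n = 3) to 297 ± 26.6 CPM (n = 2) in females and from 184 ± 19.6 (n = 2) to 49.9 ± 15.5 CPM (n = 3) in males. As a difference between the sexes, male minus female, the PFOA effect was −1.06 ± 0.28 on the log2 scale; it did not pass edgeR's test (adjusted p = 0.246), and passed with DESeq2 (−1.07, adjusted p = 0.0267), with no low-count filter (−1.09, adjusted p = 7.35e-05) and without hPPARa male PFOA replicate 3 (adjusted p = 0.0305). None of the 10 genes passed edgeR's test of PFOA by sex, beside 0.104% of all genes (0.0417% higher and 0.0625% lower); 3 had an unadjusted p under 0.05 and DESeq2 called 1, Hamp2.

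In KO livers, Hamp2 had 559 CPM in the vehicle female and 320.1, 293 and 459 CPM in the exposed females. The males had 75.6, 17.0 and 83.0 CPM on vehicle and 55.1, 125 and 52.4 CPM on PFOA. The exposed females lay below the single vehicle female, and the male groups overlapped. The difference was 0.020 ± 0.49 (adjusted p = 0.985, 95% interval −1.12 to 1.16), and its sign turned with an equal weight of the sexes and without the 3 libraries named above (both −0.12). The difference between genotypes, KO minus hPPARa, was 1.36 ± 0.56 and did not pass (adjusted p = 0.288, unadjusted p = 0.0280).

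Hamp2 was lower in males than in females in both genotypes. Every female liver of a genotype lay above every male liver of it: 278 to 554 against 39.4 to 198 CPM in hPPARa, and 293 to 559 against 17.0 to 125 CPM in KO. Males had 4.08-fold less than females in hPPARa (log2 fold change −2.03 ± 0.22 SE, adjusted p = 0.000592) and 5.99-fold less in KO (log2 fold change −2.58 ± 0.49 SE, adjusted p = 0.0332). These were the only calls among the 10 genes between the sexes by edgeR with the low-count filter, all libraries and no replicate block. Of all genes, 3.48% were called in hPPARa (1.94% lower in males) and 3.41% in KO (2.15% lower). The hPPARa call of Hamp2 held in every alternative. The KO call was lost without any of 7 of the 10 KO libraries (highest adjusted p = 0.226) and without the 3 cross-sex libraries (−2.85, adjusted p = 0.327), while its size stayed between −2.94 and −2.20 with single libraries left out. For Hamp the male minus female differences, −0.56 ± 0.22 in hPPARa (adjusted p = 0.209) and −0.94 ± 0.53 in KO (adjusted p = 0.381), did not pass. The hPPARa difference of Hamp became a second call with no low-count filter (−0.55, adjusted p = 0.00307) and without hPPARa male PFOA replicate 2 (−0.77, adjusted p = 0.0210).

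As a share of Hamp and Hamp2 counts together, Hamp2 took 30.7 to 44.0% in hPPARa females and 5.61 to 23.4% in hPPARa males. In KO the females had 27.1 to 44.3% and the males 8.52 to 30.8%, so that the sexes overlapped. The copies are near identical, and the authors' counting could have split or dropped reads that match both, so the share is uncertain.

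**Figure D2:**
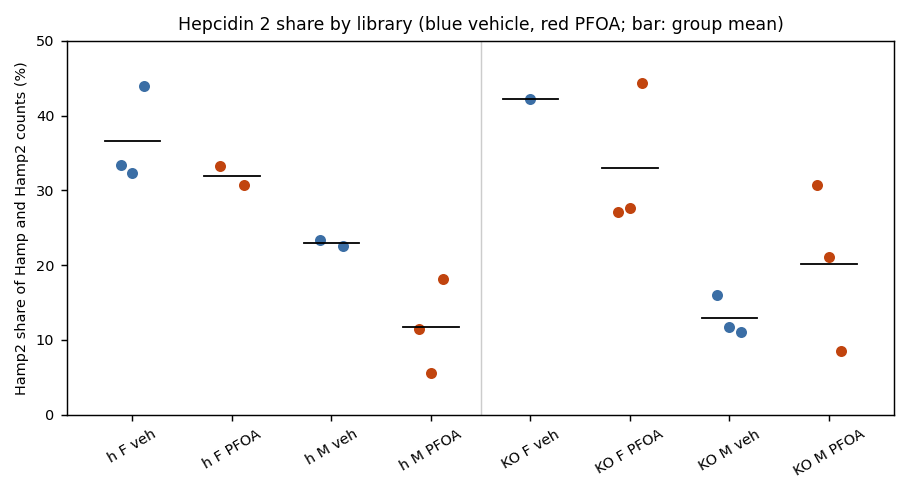
Hamp2 counts as a percentage of Hamp and Hamp2 counts in each of 20 libraries, by group (h, hPPARa; KO, knockout; F, female; M, male; veh, vehicle). Points are libraries and bars group means. The hPPARa females lie at 30.7% or above and the hPPARa males at 23.4% or below, while KO males reach 30.8%.

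Trf encodes transferrin, the plasma protein that carries iron between organs, and is made mainly by hepatocytes. It was the most abundant of the 10 genes per length of annotated exon in hPPARa vehicle livers. In hPPARa females it had 15472, 17579 and 21464 CPM on vehicle and 12494 and 15003 CPM on PFOA. The hPPARa males had 16329 and 16905 CPM on vehicle and 7909.6, 9871 and 10354 CPM on PFOA. All 5 exposed livers lay below all 5 vehicle livers, and the exposed males were lowest. Trf fell 1.53-fold (log2 fold change −0.62 ± 0.14 SE, adjusted p = 0.00593, edgeR).

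The KO livers gave nearly the same picture for Trf. The vehicle female had 18066 CPM and the vehicle males 17541, 16318 and 19693 CPM, against 13410.1, 10818 and 15080.5 CPM in exposed females and 9693, 9457 and 9858 CPM in exposed males. All 6 exposed livers lay below all 4 vehicle livers. Trf fell 1.68-fold in KO (log2 fold change −0.75 ± 0.13 SE, adjusted p = 0.00194, edgeR), and the difference between genotypes was −0.14 ± 0.19 with a 95% interval of −0.53 to 0.26. Both calls held in every alternative run. Trf was the 1 member without overlap in hPPARa, beside 5.68% of all genes lower and 8.63% higher without overlap, and the 1 that was lower without overlap in KO, beside 3.97%.

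Some other hepatocyte products were called in the same direction. Of 12 tested hepatocyte markers, 7 fell, 0 rose and 5 had no call in hPPARa, beside 9.76% of all genes lower. In KO 3 fell, 0 rose and 9 had no call, beside 6.36% lower. Their summed level was 120684 to 217863 CPM in hPPARa vehicle and 89711 to 130705 CPM in hPPARa PFOA livers, and 98717 to 116590 CPM and 75199 to 96971 CPM in KO. Alb made up the largest part of this sum, with a mean of 99146 CPM in hPPARa vehicle livers. The part of these markers in the change of Trf was not tested.

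Tfrc encodes transferrin receptor 1, which takes up iron-loaded transferrin and is high in dividing and red cell precursor cells. It had the lowest level of the 10 genes per length of annotated exon in hPPARa vehicle livers. In hPPARa females it had 12.4, 13.2 and 16.5 CPM on vehicle and 8.78 and 10 CPM on PFOA, with exposed below vehicle. The hPPARa males had 14.6 and 9.67 CPM on vehicle and 15.9, 17.2 and 12.4 CPM on PFOA, overlapping. Over both sexes the difference was −0.13 ± 0.20 (adjusted p = 0.673), and the male minus female difference in PFOA effect was 0.91 ± 0.29 (adjusted p = 0.315, unadjusted p = 0.00775).

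In KO livers Tfrc reached its highest value. The vehicle female had 12.2 CPM, the vehicle males 10.4, 22.8 and 9.59 CPM, the exposed females 12.2, 23.7 and 20.8 CPM and the exposed males 50.9, 24.9 and 16.8 CPM. The exposed livers spread from 12.2 to 50.9 CPM over the vehicle range of 9.59 to 22.8 CPM, and 3 of 6 lay above it. The difference of 0.95 ± 0.41 did not pass the test (adjusted p = 0.174; 95% interval −0.0038 to 1.91), nor did that between genotypes (1.08 ± 0.48, adjusted p = 0.329). Of 15 cell cycle genes, 8 rose and 0 fell in hPPARa, beside 12.8% of all genes higher, while Tfrc had −0.13 and no call. In KO 5 rose and 0 fell, beside 7.41% higher, and Tfrc was not called. Their summed level in hPPARa females was 46.0 to 61.6 CPM on vehicle and 83.9 to 121 CPM on PFOA. In hPPARa males it was 34.9 to 44.0 and 58.8 to 64.6 CPM. In KO it was 56.0 and 52.2 to 57.4 CPM in females, and 34.3 to 53.6 and 49.7 to 61.7 CPM in males. The part of cell cycle genes in the Tfrc values was not tested.

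The 2 livers with the lowest Hamp were also the highest in Tfrc for their group. KO male PFOA replicate 1 had 124 CPM of Hamp and 50.9 CPM of Tfrc, and KO male vehicle replicate 2 had 128 CPM and 22.8 CPM. Over the 19 libraries of groups with at least 2, the deviations of log2 CPM from the group mean of the 2 genes had a Pearson r of −0.77 and a Spearman rho of −0.62. Without those 2 livers, the farthest from the median of Hamp, r was −0.51 and rho −0.48 over 17 libraries, a weaker relation. It is given as a description over libraries that share a sequencing provider and a scaling. The same 2 livers had the highest summed level of 9 erythroid markers, each 365 CPM, against 87.7 to 331 CPM in the others; of the 10 listed, Ahsp was not among the rows, and none of the 5 tested passed in either genotype. Their part was not tested.

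**Figure D3:**
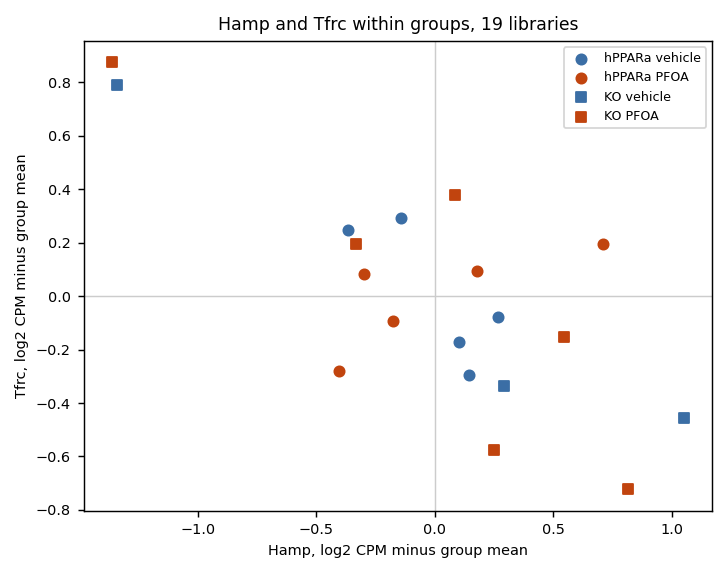
Deviation of Hamp (horizontal) and Tfrc (vertical) from the group mean, in log2 CPM, for 19 libraries in 7 groups. Circles are hPPARa, squares KO, blue vehicle and red PFOA. The points run from upper left to lower right (r = −0.77), and 2 KO males stand apart at the upper left.

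Tfr2 encodes transferrin receptor 2, which serves hepatocytes as an iron sensor and belongs to the input of hepcidin. Its levels were among the steadiest of the list. Means were 361 ± 4.22 (n = 3) and 384 ± 41.5 CPM (n = 2) in vehicle females and males of hPPARa, and 416 ± 23.0 (n = 2) and 364 ± 35.6 CPM (n = 3) on PFOA. In KO the vehicle female had 403 CPM and the vehicle males 399 ± 25.6 CPM (n = 3), with 375 ± 33.2 and 349 ± 42.8 CPM (n = 3 each) on PFOA. All 8 group means lay between 349 and 416 CPM. The PFOA differences were 0.060 ± 0.10 in hPPARa and −0.16 ± 0.10 in KO (adjusted p = 0.701 and 0.306), with 95% intervals of −0.16 to 0.28 and −0.38 to 0.054.

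Hfe encodes the hereditary haemochromatosis protein, which binds both transferrin receptors and takes part in the signal to hepcidin. It was the gene of the list whose PFOA effect differed between the genotypes. In KO livers it had 30.9 CPM in the vehicle female, 24.8, 20.5 and 20.3 CPM in the vehicle males, 43.7, 45.1 and 42.0 CPM in the exposed females and 39.8, 40.1 and 36.0 CPM in the exposed males. All 6 exposed livers lay above all 4 vehicle livers. Hfe rose by 0.71 ± 0.097 on the log2 scale, or 1.63-fold (adjusted p = 0.000490, edgeR), and this call held in every alternative, also without the 3 cross-sex libraries (0.80, adjusted p = 0.00846).

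In hPPARa livers, Hfe had 31.3, 31.8 and 34.3 CPM in vehicle females and 34.3 and 33.0 CPM in vehicle males, close to each other. On PFOA the females had 41.0 and 39.2 CPM, above every vehicle liver, and the males 33.0, 31.7 and 30.7 CPM, within or just below the vehicle range. Over both sexes the difference was 0.11 ± 0.090 (adjusted p = 0.408). The PFOA effect, male minus female, was −0.37 ± 0.15 (adjusted p = 0.434, unadjusted p = 0.0297).

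The PFOA effect on Hfe was larger in KO than in hPPARa by 0.60 ± 0.13 on the log2 scale (adjusted p = 0.0240, edgeR). It was the only 1 of the 10 genes called by genotype, beside 1.17% of all genes (0.443% higher in KO); 4 had an unadjusted p under 0.05, and the other 3 were Hamp2, Tfrc and Cp. On vehicle, Hfe was 1.3-fold lower in KO than in hPPARa (log2 fold change −0.38 ± 0.097 SE, adjusted p = 0.0311), the only call of the 10 between the genotypes on vehicle, beside 3.77% of all genes (1.76% lower in KO). Both comparisons share the vehicle libraries, so they are not separate evidence: KO males on vehicle were the lowest group, at 21.9 ± 2.53 CPM (n = 3), and KO males on PFOA had 38.6 ± 2.28 CPM (n = 3) beside 31.8 ± 1.13 CPM (n = 3) in exposed hPPARa males. The genotype term was lost without hPPARa male vehicle replicate 1 or 2, KO male PFOA replicate 2 or KO male vehicle replicate 3 (highest adjusted p = 0.0617), and without the 3 cross-sex libraries (0.68, adjusted p = 0.0812). The vehicle difference was lost without 5 of 20 single libraries (highest adjusted p = 0.0841), with no low-count filter (adjusted p = 0.0523), and without those 3 libraries (−0.49, adjusted p = 0.0582).

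Slc11a2 encodes DMT1, which moves ferrous iron across the membranes of endosomes and of gut cells. It was low in liver, from 19.1 to 36.1 CPM over all 20 libraries. The groups overlapped in each genotype, with 2 of 5 exposed hPPARa livers below the vehicle range and 0 of 6 exposed KO livers outside it. The differences were −0.19 ± 0.11 in hPPARa (adjusted p = 0.231) and 0.18 ± 0.16 in KO (adjusted p = 0.502), the latter −0.027 without the 3 cross-sex libraries.

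Fth1 and Ftl1 encode the heavy and light subunits of ferritin, the shell in which cells store iron; the heavy subunit oxidises the iron that enters. Fth1 had 2052 CPM in the KO vehicle female, 2365, 2435 and 2014 CPM in the KO vehicle males, 3140.4, 2983 and 2536 CPM in the exposed KO females and 2828, 3029 and 2840.3 CPM in the exposed KO males. All 6 exposed livers lay above all 4 vehicle livers, and Fth1 rose by 0.40 ± 0.11 on the log2 scale, or 1.32-fold (adjusted p = 0.0249, edgeR). The call was lost without KO male PFOA replicate 2, KO male vehicle replicate 3 or KO female vehicle replicate 1 (highest adjusted p = 0.0927), and without the 3 cross-sex libraries (0.32, adjusted p = 0.292).

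In hPPARa livers Fth1 had 1741, 2017 and 2208 CPM in vehicle females and 2211 and 2417 CPM in vehicle males, and 2494 and 2257 CPM in females and 3278, 2254 and 2493 CPM in males on PFOA. The groups overlapped, with 3 of 5 exposed livers above the vehicle range. The difference of 0.23 ± 0.12 did not pass (adjusted p = 0.196), and the effects of the genotypes were not shown to differ (0.17 ± 0.16, adjusted p = 0.693).

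Ftl1 in hPPARa livers had 732, 678 and 709.5 CPM in vehicle females and 863 and 733 CPM in vehicle males, and 938 and 937 CPM in females and 1395, 842 and 854 CPM in males on PFOA. Male PFOA replicate 1 was highest, and 3 of the 5 exposed livers lay above every vehicle liver. The difference of 0.39 ± 0.14 missed the threshold in edgeR (adjusted p = 0.0616) and passed with DESeq2 (0.39, adjusted p = 0.0323), in the fit of all 20 libraries (adjusted p = 0.0307), with no low-count filter (adjusted p = 0.00654) and without hPPARa male PFOA replicate 2 or 3 (lowest adjusted p = 0.0418). In KO livers the values were 662 to 830 CPM on vehicle and 750.2 to 1018 CPM on PFOA (0.20 ± 0.11, adjusted p = 0.251).

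The heavy subunit took a steady share of ferritin counts. Fth1 was 71.7 to 74.3% of Fth1 and Ftl1 counts by group mean in hPPARa and 73.8 to 77.8% in KO. Deviations from the group mean of the 2 subunits went together over 19 libraries (r = 0.72, a description). Both genes have processed copies elsewhere in the genome, and reads shared with them could have been lost or split in the counting.

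Cp encodes ceruloplasmin, the copper enzyme of plasma that oxidises iron as it leaves cells. In KO livers it had 936 CPM in the vehicle female, 1485, 1333 and 1372 CPM in the vehicle males, 2189, 1756 and 2338 CPM in the exposed females and 1641, 1833 and 1754 CPM in the exposed males. All 6 exposed livers lay above all 4 vehicle livers, and Cp rose by 0.58 ± 0.16 on the log2 scale, or 1.5-fold (adjusted p = 0.0252, edgeR). The vehicle female was the lowest of the 20 livers: without it the difference was 0.32 (adjusted p = 0.128), and the call was also lost without KO male PFOA replicate 2 (0.60, adjusted p = 0.058) and without the 3 cross-sex libraries (0.28, adjusted p = 0.285). Hfe, Fth1 and Cp were the 3 members above the vehicle livers without overlap in KO, beside 5.67% of all genes.

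Exposed hPPARa livers had 1515 and 1511 CPM of Cp in females and 1269, 1363 and 1229.6 CPM in males, within the vehicle range of 1043 to 1626 CPM. The difference was 0.12 ± 0.12 (adjusted p = 0.496), and that between genotypes 0.45 ± 0.20 (adjusted p = 0.316). Cp and Hp are also made in the acute phase of inflammation. The summed level of 9 neutrophil markers in KO was 0.442 to 1.80 CPM on vehicle and 88.7 to 326 CPM on PFOA. Nearly all of it was S100a8, with 87.9 to 325 CPM on PFOA; each of the other 8 stood at 2.03 CPM or less in every exposed KO liver, and Ly6g at 0. In hPPARa it was 0.739 to 1.59 CPM on vehicle and 3.66 to 9.56 CPM on PFOA. S100a8 was the 1 neutrophil marker called, of 2 tested in hPPARa and 3 tested in KO. It was higher in both genotypes by edgeR (named after its value was seen), beside 12.8% and 7.41% of all genes higher. Of 14 acute phase genes, 1 rose and 1 fell in hPPARa, beside 12.8% of all genes higher and 9.76% lower. In KO 1 rose, beside 7.41% higher (Orm2, 1.96 ± 0.16, named after its value was seen). Their part in the change of Cp was not tested.

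**Figure D4:**
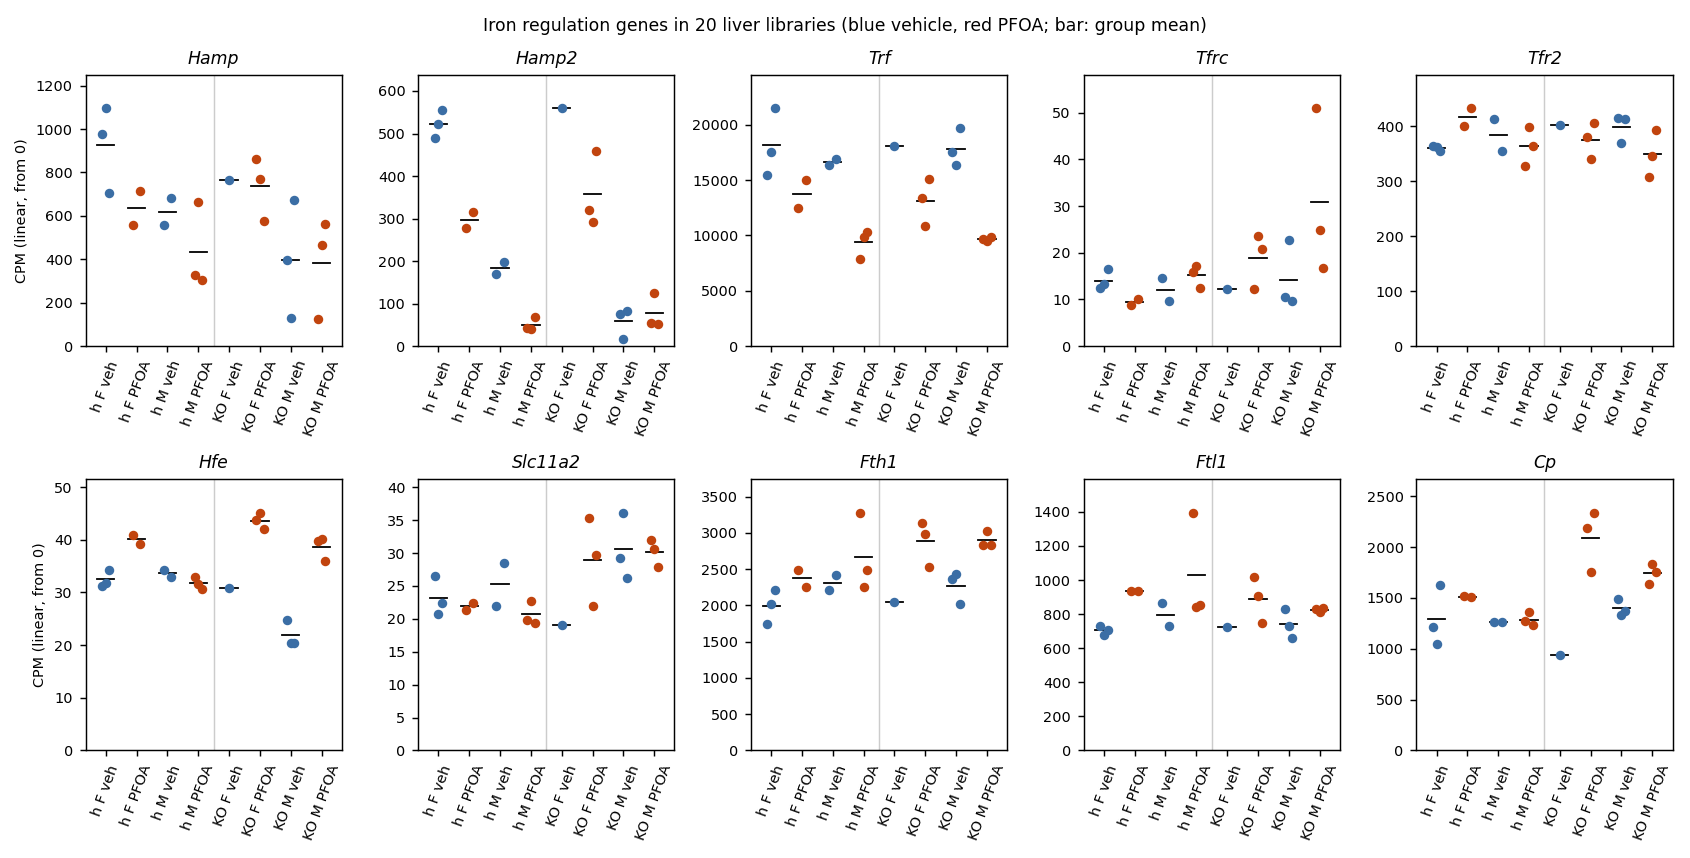
CPM of the 10 iron genes in all 20 libraries, on linear axes from 0, by group (h, hPPARa; KO, knockout; F, female; M, male; veh, vehicle). Points are libraries, blue vehicle and red PFOA, and bars are group means. Trf is lower in every exposed group, Hamp2 is high in females, and Hfe is lowest in KO males on vehicle.

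Per length of annotated exon, the 10 genes spanned over 3 orders of size in the 5 hPPARa vehicle livers. That length is the union of all exons annotated for a gene, 3469 bases for Fth1 and 410 for Hamp. It can exceed the length of the transcript made, so the order is approximate. Trf had 5286 ± 699 CPM per kb (SD, n = 5), followed by Hamp with 1959 ± 545 and Hamp2 with 663 ± 320. Fth1 had 611 ± 73.2 and Ftl1 555 ± 52.6 CPM per kb. By this length the 3 neighbours Hamp2, Fth1 and Ftl1 did not differ beyond their spread, and another length could part them. Cp followed with 134 ± 22.3, Tfr2 with 85.3 ± 5.69, Hfe with 9.22 ± 0.389, Slc11a2 with 3.78 ± 0.526 and Tfrc with 2.15 ± 0.413 CPM per kb.

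Among 12476 genes with a mean of at least 1 CPM, those whose deviations from the group mean were most like those of Hamp over the 19 libraries were Gspt2 (r = 0.85), Nadsyn1 (0.80), Nt5c2 (0.79), Foxm1 (0.79) and Etnppl (0.79). Within the list the nearest to Hamp were Tfr2 (0.60) and Hamp2 (0.53), and Trf went with Cp (0.60). These are descriptions over libraries that share a sequencing provider and a scaling.

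The other genes of iron handling were taken as 4 lists of 66 genes, of which 60 were tested. By edgeR 9 rose and 5 fell with PFOA in hPPARa, where 22.6% of all genes were called. The hPPARa share lies near that background. In KO 11 rose and 3 fell, where 13.8% of all genes were called. By genotype 1 of the 60 was called, beside 1.17% of all genes. Median log2 fold changes over the 60 were 0.071 in hPPARa and 0.085 in KO.

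Genes that control hepcidin moved in both directions. Of 22 tested, 3 rose and 4 fell in hPPARa, beside 12.8% of all genes higher and 9.76% lower. Bmp6, the BMP that endothelial cells make in response to iron, had 2.75 to 5.05 CPM on vehicle and 4.97 to 7.16 CPM on PFOA (0.65 ± 0.18, adjusted p = 0.0212, edgeR). Id1, a direct target of BMP signalling as Hamp is, had 2.91 to 4.81 CPM on vehicle and 4.52 to 9.40 CPM on PFOA (0.89 ± 0.21, adjusted p = 0.00895). Smad7, an inhibitory SMAD that is also a BMP target, had 10.3 to 15.5 CPM on vehicle and 6.41 to 9.15 CPM on PFOA, a fall (−0.74 ± 0.13, adjusted p = 0.00108). Id1 and Smad7 moved in opposite directions, and Hamp did not pass. Smad6 and Atoh8, of the same list, had no call in hPPARa (named after their values were seen). Mean Smad6 was 9.51 CPM on vehicle and 9.22 CPM on PFOA, and mean Atoh8 17.9 and 15.2 CPM. The state of BMP signalling was not tested. Il6ra, the receptor of interleukin 6, had 44.9 to 92.0 CPM on vehicle and 15.3 to 34.4 CPM on PFOA, a fall with no overlap (−1.42 ± 0.14, adjusted p = 2.11e-05), and Neo1, a partner of hemojuvelin, rose (0.53 ± 0.13, adjusted p = 0.0100). Acvr1, a BMP receptor, and Cebpa, a liver transcription factor, also fell (−0.36 ± 0.11 and −0.40 ± 0.12), both named after their values were seen. The Bmp6 call was lost without hPPARa male vehicle replicate 2 or female PFOA replicate 2 (highest adjusted p = 0.0948). Sinusoidal endothelial markers were set beside Bmp6. In hPPARa 6 of 10 rose and 0 fell, beside 12.8% of all genes higher (median 0.37 on the log2 scale). In KO 2 of 10 rose and 0 fell, beside 7.41% higher (median −0.039). Their summed level was 323 to 404 CPM on vehicle and 337 to 440 CPM on PFOA in hPPARa, and 238 to 365 and 280 to 345 CPM in KO. Their part was not tested.

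In KO 2 of the 22 genes of hepcidin control rose and 1 fell, beside 7.41% of all genes higher and 6.36% lower. Il6ra fell again (−0.89 ± 0.15, adjusted p = 0.00258, edgeR), and Smad1 (0.32 ± 0.091, adjusted p = 0.0361) and Neo1 (0.39 ± 0.12, adjusted p = 0.0450) rose. Bmp6 had 0.22 ± 0.27 (adjusted p = 0.630). Hjv, the hemojuvelin co-receptor, and Tmprss6, the protease that cuts it, did not pass edgeR's test in either genotype: Hjv had 0.21 ± 0.11 and 0.17 ± 0.14, and Tmprss6 −0.12 ± 0.14 and −0.27 ± 0.099 (lowest adjusted p of the 4, 0.0824). With DESeq2 Tmprss6 passed in KO (−0.27, adjusted p = 0.0332). None of the 22 was called by genotype in edgeR, with 4 at an unadjusted p under 0.05.

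Of 14 tested iron transport genes, 3 rose and 1 fell in hPPARa, beside 12.8% of all genes higher and 9.76% lower. In KO 2 rose and 1 fell, beside 7.41% higher and 6.36% lower. Slc39a14, which takes up iron not bound to transferrin, had 159 to 262 CPM on vehicle and 108 to 164 CPM on PFOA in hPPARa, a fall (−0.78 ± 0.16, adjusted p = 0.00487, edgeR), and −0.047 ± 0.12 in KO. That difference between genotypes was 0.73 ± 0.21 (adjusted p = 0.0974 in edgeR) and passed with DESeq2 (adjusted p = 0.0392), with no low-count filter (adjusted p = 0.000468) and without hPPARa male vehicle replicate 2 (adjusted p = 0.0310). Slc25a37, mitoferrin 1, which brings iron into mitochondria, rose in both genotypes. In KO it had 26.7 to 48.2 CPM on vehicle and 89.0 to 126 CPM on PFOA, with no overlap (2.82-fold, adjusted p = 0.000264), and in hPPARa the difference was 0.58 ± 0.16 (adjusted p = 0.0258). Mfn2 and Abcb8, both of mitochondria, rose in hPPARa (0.43 ± 0.13 and 0.30 ± 0.092). In KO Slc39a8, another uptake carrier, rose (0.42 ± 0.12) and Scara5, a receptor for ferritin, fell (−1.10 ± 0.26). Slc40a1, ferroportin, the target of hepcidin, did not pass: −0.35 ± 0.16 in hPPARa (adjusted p = 0.148) and 0.11 ± 0.16 in KO (adjusted p = 0.709). In hPPARa it passed with no low-count filter (−0.33, adjusted p = 0.0276).

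Of 12 tested storage and sensing genes, 1 rose in hPPARa and 2 in KO, with 0 lower. Of all genes, 12.8% rose in hPPARa and 7.41% in KO. Ireb2, iron regulatory protein 2, rose in both. It had 77.3 to 91.9 CPM on vehicle and 96.6 to 129.7 CPM on PFOA in hPPARa (0.40 ± 0.094, adjusted p = 0.00907, edgeR) and 73.7 to 100.3 and 88.6 to 139 CPM in KO (0.53 ± 0.099, adjusted p = 0.00350). Aco1, iron regulatory protein 1, had 0.35 ± 0.13 in hPPARa (adjusted p = 0.0590) and 0.24 ± 0.12 in KO (adjusted p = 0.179). The hPPARa difference of Aco1 passed with DESeq2, with equal weight of the sexes, in the fit of all 20 libraries and with no low-count filter (adjusted p = 0.0435, 0.0416, 0.0408 and 0.0117), and without hPPARa male vehicle replicate 1 or male PFOA replicate 1 (lowest adjusted p = 0.00556). Hif1a, of the oxygen sensing pathway, rose in KO (0.29 ± 0.078, adjusted p = 0.0271).

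Heme is another route of iron into liver. Of 12 tested genes of heme uptake and breakdown, 2 rose and 0 fell in hPPARa, beside 12.8% of all genes higher and 9.76% lower. In KO 5 rose and 1 fell, beside 7.41% higher and 6.36% lower. Slc48a1, which moves heme out of lysosomes, had 34.2 to 45.6 CPM on vehicle and 77.4 to 102 CPM on PFOA in hPPARa (2.17-fold, adjusted p = 8.93e-06, edgeR) and 55.4 to 69.6 and 78.7 to 106 CPM in KO (0.50 ± 0.10, adjusted p = 0.00747), with no overlap in either. The ranges of exposed livers overlapped between the genotypes, and on vehicle every hPPARa liver lay below every KO liver (KO minus hPPARa 0.65 ± 0.11, adjusted p = 0.00267). Its PFOA effect was smaller in KO by −0.62 ± 0.15 (adjusted p = 0.0404), the only call by genotype among the 60, and that call was lost without any of 14 of the 20 libraries (highest adjusted p = 0.129) and without the 3 cross-sex libraries (−0.64, adjusted p = 0.203). Flvcr2, of the same transporter family as a heme exporter, rose in hPPARa (0.93 ± 0.16, adjusted p = 0.00112).

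In KO, Hmox1, the inducible heme oxygenase that frees iron from heme, had 10.3 to 19.1 CPM on vehicle and 20.8 to 55.1 CPM on PFOA, with no overlap (1.10 ± 0.30, adjusted p = 0.0451, edgeR), a call lost without any of 7 of the 10 libraries (highest adjusted p = 0.1). Hmox2, Hp (haptoglobin, which binds free haemoglobin) and Cd163 (its receptor on macrophages) rose by 0.40 ± 0.092, 0.40 ± 0.10 and 0.74 ± 0.16. Lrp1, a receptor for the heme carrier hemopexin, fell (−0.43 ± 0.12, named after its value was seen). In hPPARa Hmox1 had 0.35 ± 0.14 (adjusted p = 0.0953), and passed with no low-count filter (adjusted p = 0.0308) and without hPPARa male vehicle replicate 2 (adjusted p = 0.00352). Of 12 markers of Kupffer cells and macrophages, which recycle red cell iron, 5 fell and 0 rose in hPPARa, beside 9.76% of all genes lower. In KO 3 rose and 0 fell, beside 7.41% higher. In hPPARa, 10 of the 12 were lower in males than in females, so their sums are given by sex. The hPPARa sum was 441 to 547 CPM on vehicle and 344 to 428 CPM on PFOA in females. In hPPARa males it was 186 to 278 and 165 to 220 CPM. In KO it was 388 and 449 to 568 CPM in females, and 175 to 358 and 339 to 482 CPM in males. The part of these cells was not tested. Without the 3 KO cross-sex libraries, Ireb2, Slc25a37, Scara5 and Cd163 kept their KO calls, and Il6ra, Smad1, Neo1, Slc39a8, Hif1a, Slc48a1, Hmox1, Hmox2 and Hp did not (adjusted p from 0.0638 to 0.277). With 7 libraries left, the log2 differences of those 9 were −0.84 for Il6ra, 0.33 for Smad1, 0.50 for Neo1, 0.32 for Slc39a8, 0.35 for Hif1a, 0.48 for Slc48a1, 1.22 for Hmox1, 0.27 for Hmox2 and 0.33 for Hp, all in the same direction as with 10.

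Some of these calls also rested on single libraries. With 1 library left out at a time, in hPPARa the call of Abcb8 was lost without any of 8 of the 10 libraries, Mfn2 of 6 and Slc25a37 of 4 (highest adjusted p = 0.121, 0.123 and 0.0815), and Ireb2 was lost without female PFOA replicate 1 (adjusted p = 0.0531). In KO, Neo1, Smad1 and Slc39a8 were lost without any of 7 of the 10 libraries (highest adjusted p = 0.120, 0.0929 and 0.117), Hif1a of 6 and Hp of 4 (0.0777 and 0.0803). Scara5 was lost without KO male PFOA replicate 2 or 3 (highest adjusted p = 0.0569), and Hmox2 without KO female vehicle replicate 1 (adjusted p = 0.0511). With equal weight of the sexes, Scara5 (−0.80, adjusted p = 0.0517), Hif1a, Smad1, Slc39a8, Neo1 and Hmox1 lost their KO calls (adjusted p from 0.0517 to 0.0968). Scara5 and Hif1a also lost theirs in the fit of all 20 libraries (adjusted p = 0.0730 and 0.0682), and Hif1a, Smad1 and Hmox1 with no low-count filter (adjusted p = 0.0802, 0.0943 and 0.114).

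**Figure D5:**
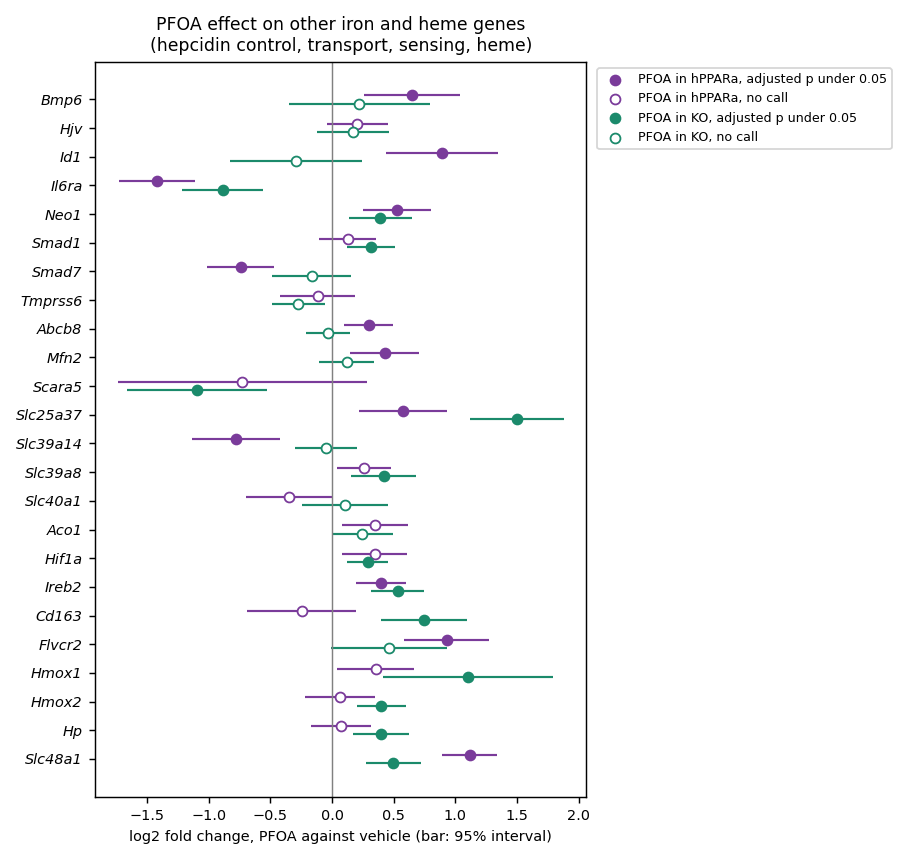
Log2 fold change of PFOA against vehicle for the named genes of the 4 iron and heme lists in hPPARa (purple) and KO (green) livers. Bars are 95% intervals and filled points have an adjusted p under 0.05. Il6ra lies left of 0 and Slc48a1, Slc25a37 and Ireb2 right of 0 in both genotypes, while Id1, Smad7 and Slc39a14 are filled in hPPARa alone.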

How the data were processed

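The values analysed are raw counts: the authors deposited a table for each genotype, of whole numbers per gene symbol and without normalization, and all 20 columns were used. Build GRCm39 and these tools stand in the submitters' processing notes, with no role given: STAR 2.5.3, featureCounts 1.6.1, edgeR 3.36.0, R 4.1.0, cutadapt 1.15 and FastQC 0.11.5. Annotation and strand setting are not stated in the sources used here. Per the labels' protocols, RNA with an integrity number above 7 was sequenced. Of 53599 symbols, 17159 had no count and 0 rows lacked a name. Chi-square per gene between replicates was 7.31 to 41.8, so none was counted as a repeat.

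Tests were made in R 4.3.3 with edgeR 4.0.16, TMM factors (0.895 to 1.08), filterByExpr by group, the robust quasi-likelihood test, and Benjamini-Hochberg adjustment over all genes tested. That filter goes by the smallest group, 1 library in KO. PFOA and sex were terms of an additive model within a genotype, PFOA by sex came from a model of 4 groups, and genotype differences from a single model of 20 libraries. The SE is the size of a log2 fold change over the square root of F. Tfrc, Slc11a2 and Hfe had the lowest mean levels of the list. Their SE was not always the largest: for PFOA in hPPARa it was 0.090 for Hfe and 0.22 for Hamp. Simulated counts had no sex effect, and 67 genes were changed 1.5-fold, 67 2-fold and 66 4-fold in each comparison. Of the 2-fold changes 68.7% were recovered in hPPARa, 64.2% in KO and 46.3% by genotype. Fewer genes were changed than were called in the data for PFOA in either genotype. That makes the adjusted threshold stricter, so these shares are no measure of the power of the tests here. Exon lengths are the union of all exons of a gene in GENCODE M21 on GRCm38.

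The genes, lists and tests were chosen with earlier results of these data known. The text names all 10 genes, 8 set pathway genes (Hjv, Tmprss6, Bmp6, Slc40a1, Slc39a14, Hmox1, Aco1, Ireb2) and, per list and PFOA comparison, up to 4 called genes with the smallest adjusted p. Alternatives were other size factors, no filter, DESeq2 1.42.0, a replicate block, equal weight of the sexes, a single fit of 20 libraries, and libraries left out.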

Additional observations from a re-analysis of the deposited data

Results flagged for a closer look

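PFOA effects differed for Hfe and Slc48a1 between the genotypes by edgeR's test of the difference itself, with Benjamini-Hochberg adjustment. Hfe had a larger log2 fold change in KO than in hPPARa, by 0.60 ± 0.13 (adjusted p = 0.0240), with all 6 exposed KO livers above all 4 vehicle KO livers. Slc48a1 had a smaller one in KO, by −0.62 ± 0.15 (adjusted p = 0.0404), with exposed livers above vehicle livers in both genotypes. Both calls were lost without the 3 cross-sex KO libraries (0.68, adjusted p = 0.0812, and −0.64, adjusted p = 0.203), and with DESeq2 both held (adjusted p = 0.00236 and 0.00593).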

How the results depend on the processing

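Counts of called genes moved with the setting; the cause was not tested, except that leaving out libraries leaves fewer samples. Of the 10 iron genes, edgeR without the filter on low counts called 4 for PFOA in hPPARa, 1 for PFOA by sex, 2 between the sexes in hPPARa and 0 between genotypes on vehicle; over all genes it called 545 by genotype, 323 by sex, 1088 and 1322 between the sexes in hPPARa and KO, and 1013 on vehicle. DESeq2 called 1 iron gene for PFOA by sex, and 431 genes by genotype, 138 by sex, 894 and 912 between the sexes and 917 on vehicle. Without the 3 cross-sex KO libraries, 2 iron genes and 630 genes were called in KO, 0 and 39 by genotype, 0 and 94 between KO sexes, and 0 and 195 on vehicle.

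Same-numbered libraries had a median correlation of deviations of 0.0188 over 52 pairs, 9 of them over 0.1 (highest 0.41). Pairs with different numbers had a median of −0.0130 over 102 pairs, 15 of them over 0.1 (highest 0.21). Of 19 libraries, 7 correlated best with a library of their own number. Whether the replicate numbers mark a shared step cannot be told from these values. A replicate block called 2 iron genes between the sexes in hPPARa, Hamp2 and Hamp (−0.59, adjusted p = 0.0459), and 0 iron genes and 206 genes between the sexes in KO; it also called Hamp for PFOA in hPPARa (−0.56, adjusted p = 0.0149). With it the KO calls of Cp (adjusted p = 0.0587), Hp, Hmox1, Hif1a, Smad1, Slc39a8 and Neo1 (adjusted p from 0.0597 to 0.0932) and the genotype call of Slc48a1 (−0.60, adjusted p = 0.0651) missed the threshold, the block values of Hjv by genotype and Ftl1 by sex were 0.0223 and 0.0656, and other counts of calls stayed within 1.5 times.

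With 1 library left out in turn, iron genes called ran from 2 to 4 in hPPARa and in KO, 0 to 1 by genotype, by sex, between KO sexes and on vehicle, and 1 to 2 between hPPARa sexes. All genes called ran from 1905 (without hPPARa female PFOA replicate 1) to 3889 in hPPARa, 1401 to 2129 in KO, 67 to 239 by genotype, 4 to 27 by sex, 255 to 686 and 127 to 609 between the sexes of hPPARa and KO, and 351 to 701 on vehicle. A group left with 1 library was assumed to vary like the others.

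No called value changed sign. Among uncalled log2 fold changes, those that did were, without the 3 libraries in KO, Hamp2 (−0.12), Slc11a2 (−0.027), Slc40a1 (−0.16) and Slc39a14 (0.070); with equal weight of the sexes, Hamp2 (−0.12); between KO sexes, Cp without the filter (0.0064) and Slc11a2 without the 3 libraries (−0.11); and on vehicle, Ftl1 with other size factors (0.00103), no filter (1.19e-05), DESeq2 (0.0019) and without the 3 libraries (0.0227). With single libraries left out, the ranges that crossed 0 were, for PFOA in KO, Hamp (−0.33 to 0.30), Hamp2 (−0.34 to 0.41), Slc11a2 (−0.016 to 0.30), Slc39a14 (−0.13 to 0.090) and Slc40a1 (−0.13 to 0.23); in hPPARa, Tfrc (−0.33 to 0.022); by genotype, Hjv (−0.099 to 0.053); by sex, Fth1 (−0.21 to 0.074), Ftl1 (−0.31 to 0.10), Hamp (−0.41 to 0.24) and Slc11a2 (−0.39 to 0.020); between the sexes, Slc11a2 (−0.094 to 0.074) and Tfr2 (−0.12 to 0.0086) in hPPARa, and Cp (−0.26 to 0.093) and Ftl1 (−0.13 to 0.0046) in KO; and on vehicle, Cp (−0.063 to 0.27), Fth1 (−0.010 to 0.079), Ftl1 (−0.071 to 0.038) and Tfrc (−0.38 to 0.038). Small changes are limited by the spread and depth. On simulated counts, where few genes were changed, 26.9% of 1.5-fold changes were recovered in hPPARa and 20.9% in KO.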

Other observations

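The row of the processed ferritin copy Fth1-ps split the libraries in a way that did not follow the groups. It had 9 to 15 counts in 6 libraries: both hPPARa males on vehicle, KO female PFOA replicate 1, KO male PFOA replicate 1 and KO male vehicle replicates 1 and 2. The other 14 libraries had 57 to 118 counts.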
